A study of Lathyrus oleraceus with 4 samples.

Results

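Transcripts for 3 chromatin proteins of garden pea were followed through a comparison of the shoot apical meristem (SAM), the dome of dividing cells from which the shoot is made, with non-meristem tissue (NM). They are AF034419, a cytosine-5 DNA methyltransferase, DQ026703, the WD-40 repeat protein MSI1, and the clone S0145, an HMG-I/Y protein. Each is measured by 1 probe of a CombiMatrix oligonucleotide array, and these 3 were picked out of 2234 probes by their identifiers. The identifiers themselves were selected on the log2 SAM/NM ratios of these same arrays, on which the study lists all 3 transcripts as higher in the SAM. The ratios below are therefore a description of the probes and carry no test.

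Both tissues came from 10-day-old greenhouse plants of the cultivar Torsdag. SAM RNA was pooled from many apices dissected free of leaf primordia, and NM RNA came from primary stem, primary root and mature leaf. Each of 4 independent collections was hybridized to its own sector of a chip, which is 1 array. The SAM carried Cy3 on sectors 1 and 3 (collections A and C) and Cy5 on sectors 2 and 4 (collections B and D), with NM in the other dye. A dissected apex joins several zones of the meristem and NM joins 3 organs, so fewer cells of a type and less RNA per cell cannot be told apart in any ratio. Channels are numbered in the deposited tables and no dye is given there. Channel 1 was taken as Cy5, and every direction here rests on that reading, which is not the order of the sample labels. Under it, all 4 probes for parts of the photosynthetic apparatus had a lower signal in the SAM (log2 ratios from -2.90 to -1.35). All 5 probes for PCNA, cyclin D and MCM proteins, which serve DNA replication and the cell cycle, had a higher one (0.54 to 2.00). The study had listed these 9 probes as changed on these samples. Their directions therefore match its reading and are no separate test of it. Under the other order every sign given here would turn.

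Chromatin is DNA wound on histones. A DNA methyltransferase of the cytosine-5 class puts methyl groups on cytosines, and in Arabidopsis the MET1 enzyme of this class copies CG methylation onto newly made strands. MSI1 is a histone-binding protein that in Arabidopsis belongs both to the chromatin assembly factor that loads histones behind the replication fork and to Polycomb complexes that methylate histone H3. HMG-I/Y proteins bind the minor groove of AT-rich DNA through AT-hooks and bend it, which helps other proteins to assemble there. The names of AF034419 and DQ026703 are those of their GenBank entries. The array tables do not pair S0145 with a name. It carries the name of EX570197, whose listed ratio and adjusted p-value single out this clone among all probes of the deposited log2 ratios, so the name rests on values of these arrays.

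The arrays differed in brightness and spread. The median probe had an intensity between 170.3 and 792 per array and channel, the SD of the log2 ratios over all probes was 0.53, 0.50, 0.67 and 0.68 on sectors 1 to 4, and the 218 probes called higher in the SAM had median log2 ratios of 0.69, 0.64, 1.03 and 0.93 on these sectors. Ratios of sectors with the same dye orientation had correlations of 0.886 and 0.869 across probes, and those of opposite orientation between 0.681 and 0.814. Probes are not independent replicates, and the precision of a ratio is limited by having 4 arrays.

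The DNA methyltransferase probe gave moderate intensities on all arrays. On sector 1 it read 503 for the SAM and 242 for NM, and on sector 2 it read 239.5 and 385. On sector 3 the readings were 810 and 289, and on sector 4 they were 1094.5 and 411. The SAM reading was the higher one on sectors 1, 3 and 4 and the lower one on sector 2. On sector 2 the Cy5 channel as a whole was dim, with a median probe at 170.3 against 397 in Cy3. On sectors 1, 3 and 4 the SAM channel as a whole was the brighter one. Its median probe was at 429, 597 and 792 there, against 259, 362 and 467 for NM. Placed among all probes of its own channel, where the brightness of the channel cancels, AF034419 stood at percentiles 62.5, 68.1, 66.1 and 65.8 in the SAM and 46.2, 47.7, 36.0 and 41.5 in NM. The SAM percentile was above the NM percentile on all 4 arrays, sector 2 included. The probe was chosen by these same signals, so this order is favoured by the choice.

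MSI1 was brighter than the median probe in every channel. Its SAM and NM intensities were 858 and 419 on sector 1 and 293.5 and 445.5 on sector 2. They were 1249 and 376 on sector 3 and 1128 and 528 on sector 4. Here too the order was turned on sector 2 alone before normalization. In percentiles of the channel, DQ026703 stood at 86.8, 75.2, 80.9 and 67.3 in the SAM and at 72.4, 58.5, 52.1 and 58.1 in NM. The SAM percentile was the higher on each array, but the ranges overlapped across arrays, since the SAM value of sector 4 lay below the NM value of sector 1.

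HMG-I/Y had the widest gap between the tissues. S0145 read 732 in the SAM and 206 in NM on sector 1, and 403.5 and 390 on sector 2. On sector 3 it read 1915 and 358, and on sector 4 it read 5438.5 and 635. The SAM reading was above the NM reading on all 4 arrays without any correction. On sectors 1, 3 and 4 the SAM channel as a whole was also the brighter one. The percentiles were 81.4, 83.9, 89.9 and 95.7 in the SAM and 36.9, 48.8, 49.4 and 68.4 in NM. Here too the order is favoured by the choice of the probe. In every channel the 3 probes were between 3.07 and 34.6 times the median of the 6 blank spots, and none was as dim as the brightest blank.

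**Figure D1:**
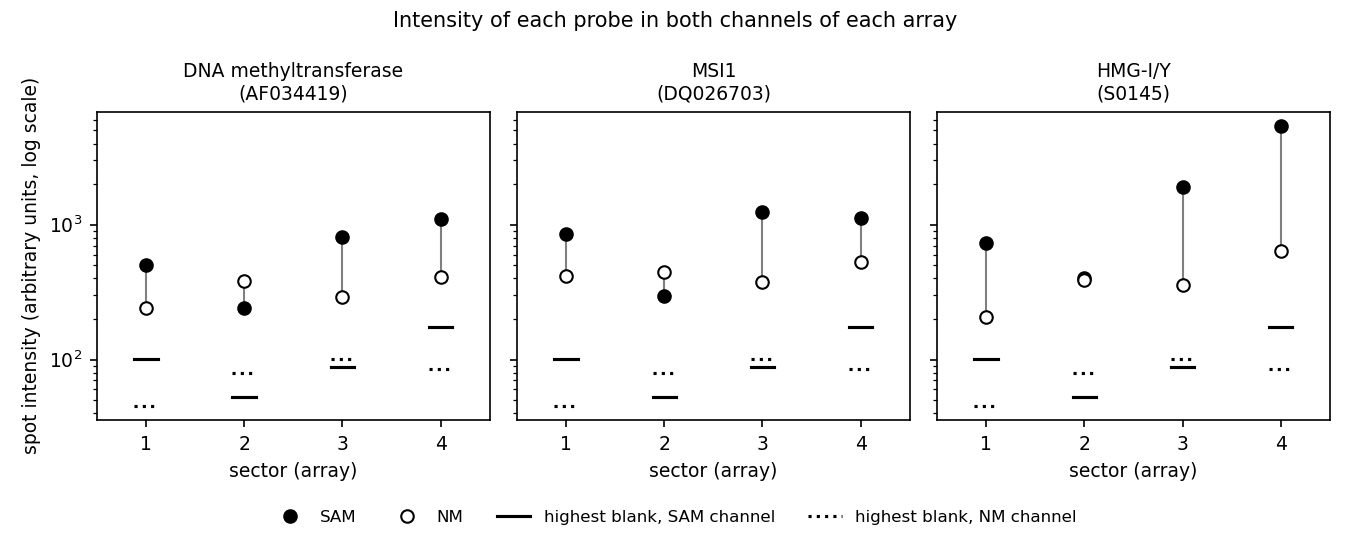
Spot intensity (log scale, arbitrary units) of the 3 probes on each of the 4 arrays, with filled circles for the SAM channel, open circles for the NM channel and short lines for the brightest blank spot of each channel. The SAM circle is the higher one on every array for HMG-I/Y, and on sectors 1, 3 and 4 for the other 2 probes, and every circle lies above the blanks.

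Each array was normalized with a robust spline (limma). It took out the part of a ratio that follows the dye and brightness of a spot over all probes of the array. A dye effect of a single probe stays in its ratio. For AF034419 the log2 SAM/NM ratios of sectors 1 to 4 were 1.05, -0.68, 1.49 and 1.41 before this step. They were 0.33, 0.48, 0.76 and 0.63 after it. The SD over the arrays went from 1.02 to 0.19, and all 4 values were above 0. The mean log2 ratio was 0.55 ± 0.19 (SD, n = 4 arrays), a ratio of 1.47, and the 4 arrays gave ratios of 1.26, 1.39, 1.70 and 1.55. The probe stood 172nd of 2234 by its mean ratio, above 92.3% of the probes, and its SD was larger than that of 44.5% of them. Sector 1 was its lowest array, and there it stood at percentile 86.3 of the ratios, against 90.9 to 92.7 on the other sectors.

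The MSI1 probe DQ026703 had unnormalized log2 ratios of 1.04, -0.60, 1.73 and 1.10 on sectors 1 to 4. After normalization they were 0.63, 0.47, 1.01 and 0.27. The mean was 0.59 ± 0.32 (SD, n = 4 arrays), a ratio of 1.51, with ratios from 1.20 on sector 4 to 2.02 on sector 3. It was 158th of the 2234 probes. All arrays lay above 0, but their spread was larger than for AF034419, with an SD above that of 78.2% of the probes. Sector 4 was the weak array of MSI1. Its ratio stood at percentile 77.1 of the probes there, against 92.4 to 94.6 on the other sectors.

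The HMG-I/Y probe S0145 had unnormalized log2 ratios of 1.83, 0.05, 2.42 and 3.10. After normalization these were 1.18, 1.07, 1.71 and 1.86. The mean was 1.45 ± 0.39 (SD, n = 4 arrays), a ratio of 2.74. The ratio itself ran from 2.10 on sector 2 to 3.63 on sector 4. Its place among the probes moved little, from percentile 97.9 on sectors 1 and 2 to 98.1 on sector 3 and 99.1 on sector 4. It was 41st of the 2234 probes. Its low arrays, sectors 1 and 2, were also those with the smaller spread of ratios over all probes, and the part of this spread in its values was not tested.

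**Figure D2:**
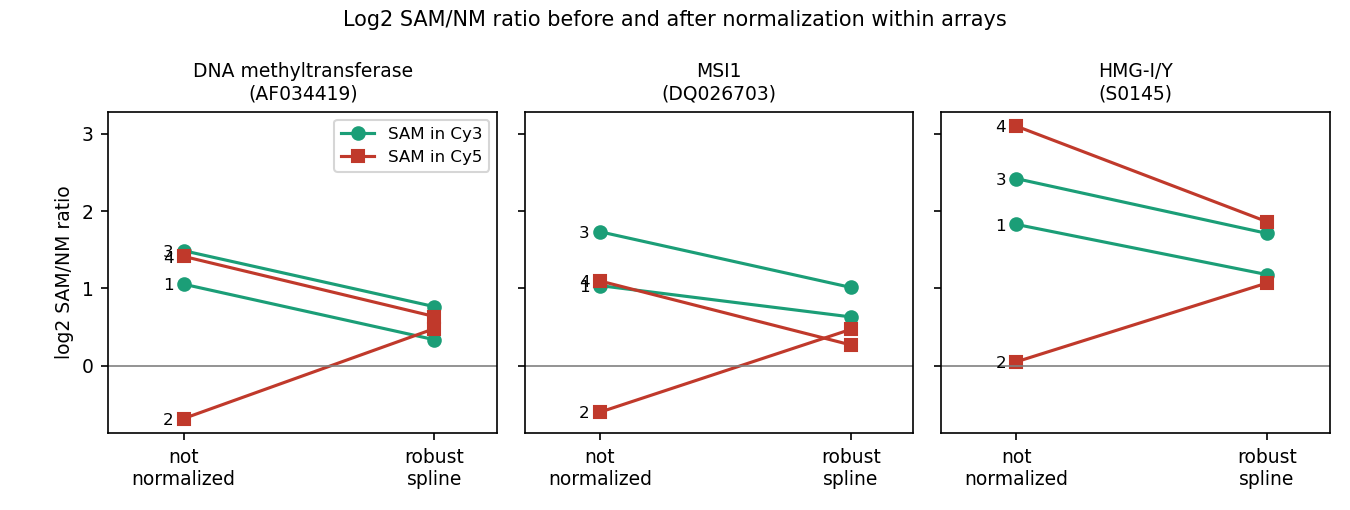
Log2 SAM/NM ratio of each probe on the 4 arrays (numbered by sector) before and after normalization within the array, coloured by the dye that carried the SAM RNA. Sector 2 lies at -0.68, -0.60 and 0.05 before normalization and at 0.48, 0.47 and 1.07 after it, with the other sectors moving down.

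**Figure D3:**
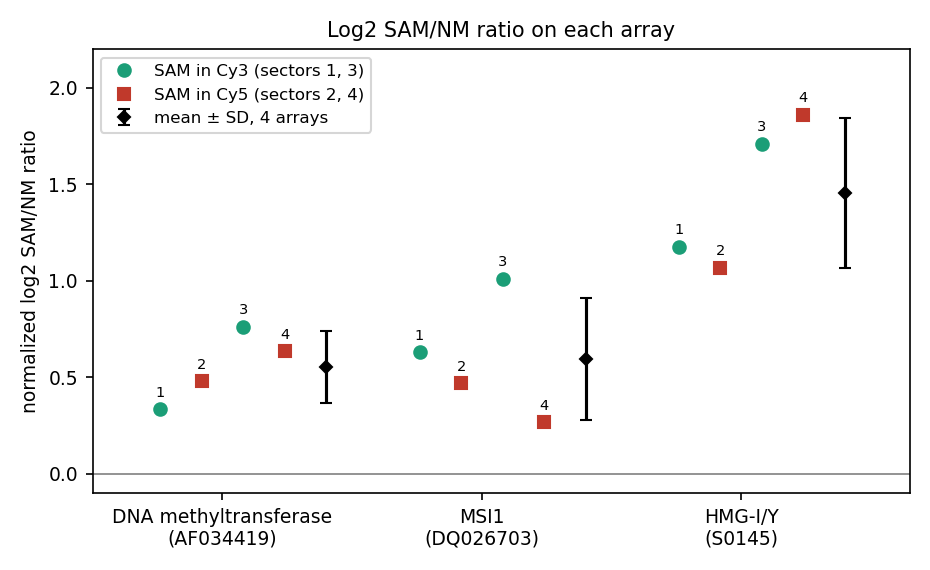
Normalized log2 SAM/NM ratio of the 3 probes, 1 point for each of the 4 arrays (circles, SAM in Cy3; squares, SAM in Cy5), with the mean and SD over the arrays as a diamond and bar. Every point is above 0, with means of 0.55 for the DNA methyltransferase, 0.59 for MSI1 and 1.45 for HMG-I/Y.

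The model fitted to all probes called a probe higher in the SAM if its adjusted p was below 0.05 and its SAM/NM ratio over 1.3. All 3 transcripts met these limits, as did 9.76% of all probes, and nothing is read from this, because the transcripts were chosen by the same contrast. The mean ratios of the 3 were 1.47, 1.51 and 2.74. On single arrays, AF034419 (1.26 on sector 1) and MSI1 (1.20 on sector 4) fell below the limit on the ratio. Among probes with an adjusted p below 0.05, the closest to it were N0248 and N0577 just inside, at ratios of 1.304 and 1.308, and C0257 and C0061 just outside, at 1.299 and 1.298. The signal was above 0 on all 4 arrays for each of the 3 transcripts and for 17.9% of all probes.

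Among themselves the ratios of the 3 transcripts fell in 2 steps. HMG-I/Y was above the DNA methyltransferase on 4 of 4 arrays, by 0.90 ± 0.26 (SD) on the log2 scale, and above MSI1 on 4 of 4 arrays, by 0.86 ± 0.49. The DNA methyltransferase and MSI1 could not be ordered. Their log2 ratios differed by -0.04 ± 0.30 (SD, AF034419 minus DQ026703), and AF034419 was the higher on 2 of 4 arrays. On sector 4 it was above MSI1 by 0.37 and on sector 1 below it by 0.30. These differences are between ratios of separate probes and do not compare amounts of transcript.

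The ratios were also compared between the dye orientations, with 2 arrays of each. Orientation cannot be told apart from a difference between collections A and C and collections B and D. The transcripts were chosen by calls on the same 4 ratios, and a difference between orientations adds to the spread that those calls used, so a small dye term is favoured by the choice and the terms are given as a description with no test. The mean log2 SAM/NM ratio of the DNA methyltransferase was 0.55 with SAM in Cy3 and 0.56 with SAM in Cy5. That of HMG-I/Y was 1.44 and 1.47. The dye terms, as log2 Cy5/Cy3, were 0.00 (standard error 0.09) for AF034419 and 0.01 (standard error 0.15) for S0145. These values near 0 moved with the setting. With 1 array left out the term ran from -0.10 to 0.11 for AF034419 and from -0.19 to 0.21 for S0145, and without normalization it was -0.45 and -0.27. Its sign was that of the full data in 2 and 4 of 9 alternatives.

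MSI1 differed more between the orientations. Its log2 ratio had a mean of 0.82 on the arrays with SAM in Cy3, a ratio of 1.77, and of 0.37 on those with SAM in Cy5, a ratio of 1.29. The dye term was -0.23 (standard error 0.09), that is, the SAM/NM ratio was smaller on the arrays with SAM in Cy5, where it was still above 1. It was below 0 in 9 of 9 alternatives, from -0.57 to -0.13. Over all probes, limma's test called the dye term for 0.224% at an adjusted p under 0.05, and for none of the 3 transcripts. Before adjustment, 517 of the 2234 probes had a p under 0.05 for this term in the same test, MSI1 among them. Nothing is read from this for the 3 transcripts.

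**Figure D4:**
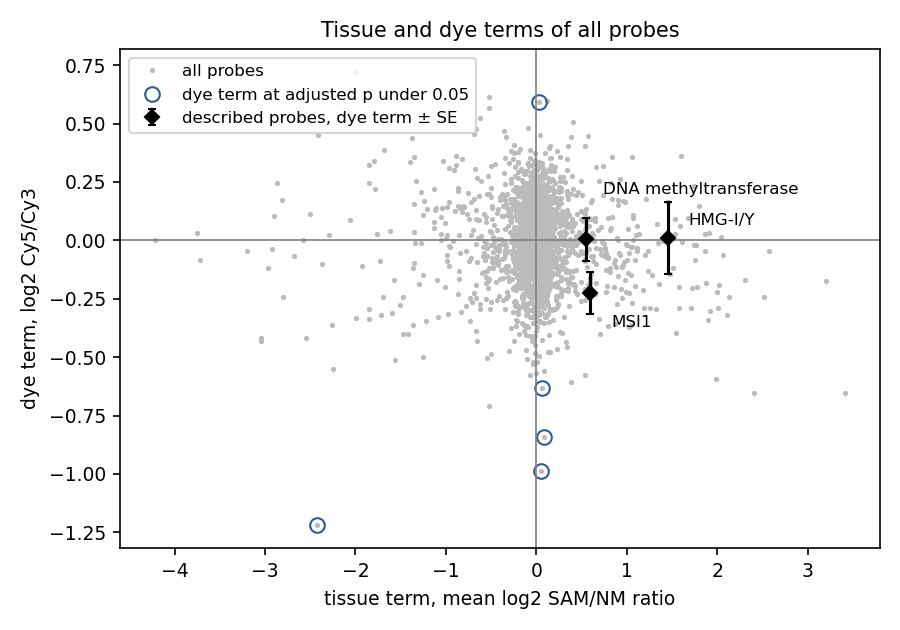
Tissue term (mean log2 SAM/NM ratio) against dye term (log2 Cy5/Cy3) for the 2234 probes, with the 5 probes whose dye term passed an adjusted p of 0.05 circled and the 3 described probes as diamonds with standard errors. The DNA methyltransferase and HMG-I/Y lie at dye terms of 0.00 and 0.01 and MSI1 at -0.23.

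The spots around the 3 probes on the chip did not share their ratios. AF034419 sits at column 30, row 7, and its 8 adjacent probes had mean log2 ratios from -0.29 to 0.45 with a median of -0.07. DQ026703 sits at column 13, row 2, and its 8 neighbours ran from -0.38 to 0.06 with a median of -0.11. S0145 is at the edge of the sector, at column 32, row 40, and its 5 neighbours ran from -0.01 to 0.31 with a median of 0.10. None of these neighbours was called higher in the SAM, where 9.76% of all probes were so called. Each of the 3 probes lay above all of its own neighbours, which its choice by a high ratio favours. Nothing is read from either.

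The transcripts came onto the array from different sources. AF034419 and DQ026703 are among 553 probes without a library clone name, drawn from GenBank apart from control probes that were not set apart here. Of these 29, or 5.24%, were called higher, and their median log2 ratio was -0.09. By their ratio they were 24th and 22nd of these 553. S0145 is a clone of the subtracted library, in which SAM cDNA was enriched against NM cDNA. Of its 296 probes, 64 (21.6%) were called higher, the median was 0.10, and S0145 was 15th. Beside the other probes of its source, S0145 was above 94.9%, MSI1 above 96.0% and the DNA methyltransferase above 95.7%.

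A list of 10 further transcripts was taken from the study's tables of changed transcripts, by names that point to DNA or chromatin. Whether each protein acts at chromatin, SN4TDR among them, was not checked. The counts of this list follow from its choice and are no evidence of a direction. In it 9 were called higher in the SAM and 1 lower, where 9.76% and 7.34% of all probes were so called, and its median log2 ratio was 0.84 against -0.0036 over all probes. It holds a second DNA methyltransferase and a second MSI protein. The chromomethylase EX568764, of a plant family that methylates cytosines outside CG sites, had log2 ratios of 0.20, 0.27, 0.85 and 0.52 on sectors 1 to 4, which average 0.46 ± 0.30 (SD, n = 4 arrays). They ran below those of AF034419 on sectors 1, 2 and 4 and above it on sector 3. The MSI3-like WD-40 protein EX570306 had 0.39, 1.04, 1.54 and 1.31, with a mean of 1.07 ± 0.50. It was below MSI1 on sector 1 and above it on the other arrays.

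The other enzymes of this list act on histones or nucleosomes. SUVH4 (EX569897), a methyltransferase for lysine 9 of histone H3 in Arabidopsis, had log2 ratios of 1.04 and 1.17 with SAM in Cy3 and 0.22 and 0.39 with SAM in Cy5. DDM1 (EX570366), a nucleosome remodeller that Arabidopsis needs for DNA methylation, had 0.91 and 1.49 against 0.65 and 0.76. Both had the higher ratios with SAM in Cy3, as MSI1 did. Their dye terms were -0.40 and -0.25, and over the 10 transcripts the term ran from -0.40 to 0.15.

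The rest of the list has names that point to DNA or chromatin, and binding was not checked. The transcriptional co-activator KIWI (EX570380), with a mean of 1.80 ± 0.57 (SD, n = 4 arrays), was the single transcript of the 10 above HMG-I/Y. The histone-fold protein EX570873 had 1.34 ± 0.38 and the DNA-binding protein PD1 (X98738) 0.91 ± 0.38. Both proteins annotated as binding scaffold attachment regions of DNA, EX571065 and EX571067, had 0.78 ± 0.58 and 0.70 ± 0.41, and the first of them was at 0.06 on sector 2. The Tudor domain protein SN4TDR (AB078603) was the one called lower, with a mean of -0.52 ± 0.21 and values from -0.80 to -0.35. Its ratio of 0.697 was next to the limit of 0.7 for a lower call, and it was not called without sector 2 or without sector 4. All 10 transcripts kept their own direction on the 4 arrays, and 8 of them had a larger mean ratio than AF034419 and DQ026703.

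**Figure D5:**
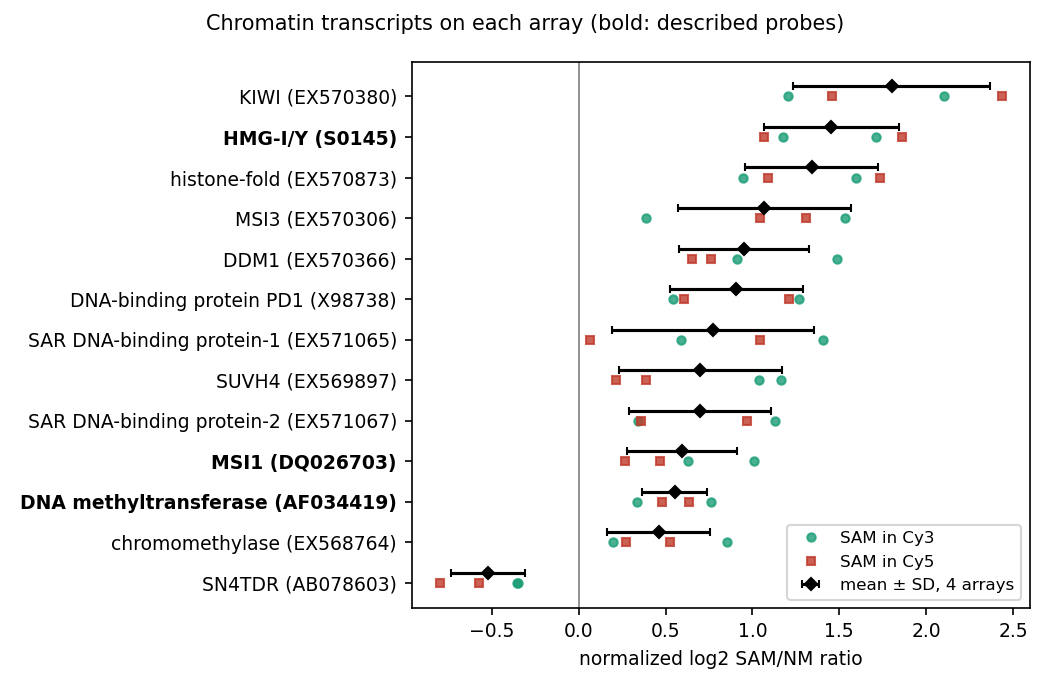
Normalized log2 SAM/NM ratio of the 3 described transcripts (bold) and the 10 further transcripts of the chromatin list, ordered by mean. There is 1 point per array, with circles for SAM in Cy3 and squares for SAM in Cy5. A diamond with a bar gives the mean and SD of the 4 arrays. HMG-I/Y stands second at 1.45, MSI1 and the DNA methyltransferase stand at 0.59 and 0.55, and SN4TDR is alone below 0.

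Transcripts of the DNA replication machinery and of the histones themselves, as listed by the study, were set beside these ratios. From the same tables of the study, 9 transcripts for PCNA, MCM proteins, DNA polymerase delta and replication factor C had a median log2 ratio of 1.05, from 0.54 to 2.00, and 16 annotated as histones had a median of 1.71, from 0.58 to 2.57. The PCNA probes Y16796 and AB008186 had 2.00 and 1.90, and the PCNA transcript EX570270 had 0.88. The study's printed tables give EX570270 a larger change than this. They also name EX570400, a histone H2A in the supplementary tables, as a ribosomal protein. All 25 were called higher, as their choice by the study implies. Transcripts that missed its limits are not in the lists, so that choice raises their medians and low ends. HMG-I/Y lay between these medians. MSI1 and the DNA methyltransferase lay near the low ends of both lists, where the MCM3 probe AY169794 had 0.54 and the H2A-like transcript EX571129 had 0.58.

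Probes with the most similar profile were found for each transcript by the root mean square difference of the log2 ratios over the 4 arrays. For MSI1 the nearest of all probes was EX571129, annotated as histone H2A, at a difference of 0.04. Its values were 0.58, 0.41, 1.01 and 0.30 beside 0.63, 0.47, 1.01 and 0.27 for MSI1. The next were AF061962, which the tables used here do not annotate, a cell cycle protein kinase (EX570388), a beta-tubulin (EX569137) and an RNA-binding protein (EX570444), at differences up to 0.12. All 5 had their highest value on sector 3, as MSI1 did, which their choice by similarity favours. The probes called higher in the SAM also had their largest median there, at 1.03.

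The 5 probes nearest to the DNA methyltransferase had differences from 0.07 to 0.09. Of these, 3 had no match to a known protein (EX570323, EX569013 and EX568913), and the others were annotated as a histidine biosynthesis protein (EX570129) and as a receptor-like kinase of the inflorescence meristem (EX570325). For HMG-I/Y the differences were larger, from 0.15 to 0.24. The nearest was the histone-fold protein EX570873, with 0.94, 1.09, 1.60 and 1.73 beside 1.18, 1.07, 1.71 and 1.86. The others were EX571013, without a match, and the ribosomal proteins S3 (EX568954), S4 (EX568887) and S2 (EX569048). With 4 arrays a profile has few points, and the overall size of the ratio weighs most in this measure.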

How the data were processed

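The authors scanned the arrays with a GenePix scanner and quantified them with CombiMatrix Microarray Imager. The deposited intensity of a spot in a channel is raw, with no background value beside it. They also deposited log2 ratios, whose direction is first over second channel and whose medians lie within 0.01 of 0. Against the intensities these log2 ratios are a global loess followed by scaling between arrays, to within 3.2e-08, although the methods name a robust spline. They were used as an alternative.

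An array without a number in its title was assigned to sector 1, since it has SAM in Cy3 and number 3 is in use. Without the 6 blank spots of 2240, 2234 probes remained. Their log2 ratios were normalized with the robust spline over each whole array and turned to SAM over NM. Both tissues of a ratio come from 1 collection on 1 array, so the pairing is within the ratio. A coefficient per probe was fitted with lmFit and eBayes (limma 3.58.1, R 4.3.3), with Benjamini-Hochberg adjustment over all probes. A probe was called where the adjusted p was below 0.05 and the ratio over 1.3 or below 0.7, the limits of the study. A second fit added a dye term, which is given for the transcripts as a description.

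On data simulated for the SAM and NM comparison over 2234 probes, with 200 changed, 93% of changes of 1 and 59% of changes of 0.6 on the log2 scale were called, with 1 false call. Dye terms of 1, set on 200 other probes, were called in 99.5%, with 15 false calls. No smaller dye term was simulated. The simulation therefore does not show how often a term such as the -0.23 of MSI1 would be called.

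Each of the 230 EX accessions of the supplementary tables was matched to the probe with its listed ratio and adjusted p-value in a fit of the deposited log2 ratios. The relative differences summed to at most 5.8e-06 at the match. The match follows the supplementary tables. The study's printed tables differ from them for EX570270 in the ratio and for EX570400 in the name. Probes named in the text are the 3 transcripts, the 5 most similar profiles of each, the listed chromatin, replication and histone transcripts, and those next to the limit. Members and lists were chosen with earlier results of these data known. No reference sequence or genome position of the probes was used here.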

Additional observations from a re-analysis of the deposited data

Results flagged for a closer look

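Over the 43 probes named for the transcripts or their lists, the 4 array values were checked for a single array far from the rest, by the gap to the nearest other array as a share of the whole range against Dixon's limit for 4 values. Chance alone gives about 1 in 20. None of the 3 chromatin regulators met this, and 4 of the 43 did, each through a high value on sector 3. The share over all probes was not computed, so nothing is read from the count. Sector 3 also had the largest median ratio of the probes called higher, at 1.03 on the log2 scale.

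The PCNA probes Y16796 and AB008186 had gaps of 0.841 and 0.855 of their range, with log2 ratios of 2.84 and 2.92 on sector 3 against 1.60 to 1.80 and 1.46 to 1.67 on the other arrays. The MCM3 probe AY169794 had a gap of 0.884, with 0.81 on sector 3 against 0.43 to 0.47. The histone H2A.2 transcript EX569090 had a gap of 0.887, with 2.68 on sector 3 against 1.74 to 1.84. Sector 3 was also the highest array of MSI1 (1.01) and of the DNA methyltransferase (0.76), whose values did not pass the limit.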

How the results depend on the processing

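Over 11 alternatives the log2 SAM/NM ratio stayed above 0 for all 3 transcripts, between 0.48 and 0.82 for AF034419, 0.46 and 0.82 for DQ026703, and 1.32 and 1.85 for S0145. The limits of a call were met in 10, 9 and 11 of the 11. With 1 array left out the ratios lay between 0.48 and 0.63, 0.46 and 0.70, and 1.32 and 1.58. Without normalization within arrays the mean moved to 0.82 for AF034419 and 1.85 for S0145, by more than the SD. The median of all probes was then 0.27, and relative to it the 3 transcripts were at 0.55, 0.54 and 1.58. DQ026703 did not meet the limits with arrays only centred on their median, and neither GenBank-derived transcript did without normalization. Over 9 alternatives the dye term ran from -0.45 to 0.11 for AF034419, -0.57 to -0.13 for DQ026703 and -0.27 to 0.21 for S0145, with the sign of the full data in 2, 9 and 4 of them. Of the 9 further chromatin transcripts called higher, 6 were called without sector 3, 6 without sector 4, 8 without sector 1 and 9 without sector 2. With median centring 5 were called, and without normalization 2. SN4TDR was called lower in 6 of 11. The count of probes called higher fell from 218 to 49 without normalization and to 128 with median centring, and that called lower fell from 164 to 31 without normalization. With 1 array left out they were 168 to 218 and 132 to 173. The causes were not tested. Blank spots were at most 173.5 in intensity, and 4 arrays limit the precision.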
